A study of Mus musculus with 16 samples.

Results

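The effect of miR-9-1 deficiency on RNA was compared, gene by gene, between 2 kinds of sorted cell: mesenchymal stem cells (MSCs) and osteoblasts (OBs). Libraries of both kinds were labelled with the same animal numbers. For each gene the genotype effect was the mean log2(value + 1) of the deficient libraries minus that of the wild-type libraries, in OBs and in MSCs. The mean of these 2 effects is called the shared effect and their difference, OB minus MSC, is called the difference. A gene entered where at least 4 libraries of each sort reached a value of 10, which held for 13863 of the 20056 genes measured (14964 met the minimum in MSCs and 14229 in OBs). A value is a deposited normalized count: the reads of a gene divided by 1 size factor per library.

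The 16 poly(A) RNA-seq libraries fell into 4 groups of 4: wild-type MSCs, deficient MSCs, wild-type OBs and deficient OBs. The deficient mice carried a disruption of Mir9-1 made by CRISPR/Cas9 editing, and no treatment is named for any group. Animal numbers in the labels tie 1 MSC and 1 OB library to each of 8 mice, lettered here A to D for the wild-type mice and E to H for the deficient mice. The labels give no sort gate, strain, sex, age or number of founders of the deficient line, and the edit is not stated to be limited to 1 cell type. Each animal number counted as 1 observation, so every test below compares 4 labelled mice with 4. Values are listed in the order of the letters throughout.

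miR-9 is a microRNA best known from the developing nervous system. A microRNA pairs through its seed, bases 2 to 8, with sites in messenger RNAs, mostly in their 3′ untranslated regions, and lowers the stability and translation of those RNAs. The mouse genome holds 3 loci, Mir9-1, Mir9-2 and Mir9-3, whose RefSeq entries (GRCm38.p6) give the same mature sequences, so that the loss of Mir9-1 removes 1 of 3 sources of the same microRNA. The 2 mature arms of Mir9-1 (hairpin at chr3:88215598-88215686, + strand) are shown because they are what the deficient mice lack from this locus, with the seed in capitals:
mmu-miR-9-5p: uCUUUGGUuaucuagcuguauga
mmu-miR-9-3p: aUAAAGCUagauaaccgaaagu
MSCs of the marrow give rise to bone, cartilage and fat cells and supply factors such as the chemokine Cxcl12 to blood-forming cells. OBs lay down the collagen matrix of bone and mineralize it, and they too signal to lymphoid progenitors.

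Libraries held 10148197 to 14246986 reads in MSCs and 15543693 to 18962771 in OBs. Poly(A) libraries do not read mature microRNAs, and the Mir9-1 gene had 0 reads in every MSC library, which allows up to 3 reads in each (counting error only). In OBs it had 7, 16, 0 and 4 reads in wild-type mice and 0, 3, 0 and 0 in deficient mice, too few to test. The markers went against the OB label in part, so OBs below means the libraries labelled OB. The summed value of 34 osteoblast and mineralization genes was 1526200 to 1992600 in wild-type MSC libraries and 244990 to 465780 in wild-type OB libraries. The summed value of 24 blood progenitor genes went the other way, 11908 to 13704 against 40093 to 44053. In MSCs the X-inactivation transcript Xist was 291 to 392 in mice A, E and F and 11937 to 14158 in the other 5, while the Y-linked Ddx3y was 1848 to 3355 and 29.8 to 78.1. All 8 OB libraries held both, with Xist from 3720 to 8053 and Ddx3y from 649 to 1939. There too, mice A, E and F had the lowest Xist and the highest Ddx3y. Settings below that leave out E and F, or G and H, therefore also follow this split, which was uneven between the genotypes. They follow the animal numbers too: those of E and F share their leading digits, and those of G and H begin with other digits. In holding both transcripts, each OB library differed from the MSC library of its number. The mouse of that MSC library alone would not give both at these levels. How both came into the OB libraries was not tested. The 8 observations may therefore not be independent, and libraries paired by number may not be of 1 mouse alone. The p-values below measure the spread between these 8 labelled mice.

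With all 8 mice, more genes passed the test of a change shared by both sorts than the test of a change that differed between them, and without mice G and H the order turned (53 shared, 365 differing). In limma, with p-values adjusted by Benjamini-Hochberg and a threshold of 0.05, the shared effect passed for 79 genes, of which 36 were higher in deficient mice (0.26% of genes tested) and 43 lower (0.31%). The difference passed for 3 genes (0.0216%). At an unadjusted p under 0.05 the shares were 10.7% higher and 11.4% lower for the shared effect, and 7.76% higher and 7.29% lower for the difference. The shared effect was the more precisely measured: its median standard error was 0.15 log2 units against 0.26 for the difference, whose 95% interval had a median half-width of 0.56. Genes that did not pass the difference test are therefore not shown to respond alike.

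Among all 13863 genes, 3989 had effects above 0 in both sorts and 5198 below 0 in both. For 2589 genes the effect was above 0 in MSCs and below 0 in OBs, and for 2087 it was the reverse. Genes with a change of 2-fold or more in both sorts were 105 higher and 149 lower, against 4 and 3 with changes of that size in opposite directions. Effects spread more widely in MSCs (SD over genes 0.61, with 1169 genes at 2-fold or more) than in OBs (SD 0.43, 543 genes). Across genes the 2 effects had a Pearson r of 0.48 and a Spearman rho of 0.44. These are given as a description, since both effects carry the same animal numbers and genes are not independent replicates.

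**Figure D1:**
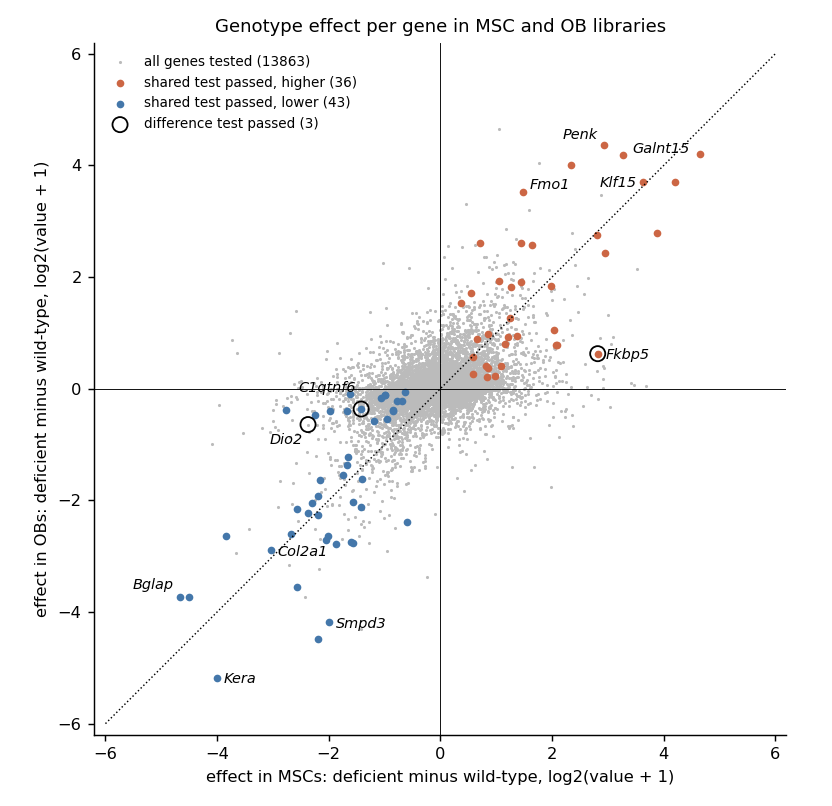
Genotype effect of each gene in MSC libraries (x axis) and in OB libraries (y axis), deficient minus wild-type, in log2(value + 1), over 13863 genes. Filled colours mark the 36 higher and 43 lower genes that passed the shared test, open circles the 3 that passed the difference test, and the dotted line equal effects. The 79 coloured points lie at the lower left and upper right, while Fkbp5 and Dio2 lie closer to the x axis than to the dotted line.

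All 79 genes that passed the shared test had effects of the same sign in both sorts, and their mouse means did not overlap between genotypes, which held for 6.43% of all genes tested in the higher direction and 6.19% in the lower. The libraries themselves did not overlap in both sorts for 54 of the 79, against 0.793% of all genes higher and 0.62% lower. The 79 were selected on these same values, so these counts describe them and are no separate support. The change was 2-fold or more in both sorts for 44 of them. It was larger in MSCs for 49 and larger in OBs for 30. At an unadjusted p under 0.05 the difference was away from 0 for 38 of the 79, in the sense of a smaller change in OBs for 25 and a larger one for 13. Only 2 of the 79, Fkbp5 and C1qtnf6, passed the adjusted difference test as well. Of the 79, 5 reached a value of 10 in no library of 1 genotype of a sort (4833403I15Rik, Upk1b, Arsi, Col26a1 and Rnf182), as did 26 of all genes tested. These 5 met the minimum in OBs only through the genotype where they were high, and their effects there rest on values near the counting floor. The number that passed rested on which mice were used: it was 3, 2, 4 and 8 without A, B, C or D, 40 without E, 1658 without F, 2 without G and 80 without H. It was 21 with the leading digits of the animal number as a covariate (13 of them among the 79) and 6 with the Xist level as one (5 among the 79). Among the deficient mice, F was the nearest to the wild-type mean for 53 of the 79 genes and E the farthest for 43.

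The gene with the smallest p was Penk (chr4:4133531-4138819), which encodes the opioid peptide precursor proenkephalin. Its values in MSCs were 494, 495, 716 and 648 in wild-type mice and 4107, 2424, 6772 and 5722 in deficient mice. In OBs they were 91.1, 89.7, 85.9 and 49.2 against 3007, 1141, 2113 and 928. Every deficient library was above every wild-type library of its sort. The effect was 2.93 ± 0.28 (log2 units ± SE) in MSCs and 4.37 ± 0.36 in OBs, for a shared effect of 3.65 ± 0.24 (adjusted p = 0.000598). The difference of 1.44 ± 0.42 had an unadjusted p of 0.0048 and did not pass after adjustment (adjusted p = 0.195).

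For 51 genes the shared effect was followed gene by gene through the alternative settings, and other genes described here were not followed. Of the 51, Fmo1 and Penk were those that passed under all 21 settings. Adjusted p-values went up to 0.0444 for Fmo1 and 0.0184 for Penk. Fmo1 (chr1:162829561-162866610) encodes a flavin-containing monooxygenase that oxidizes foreign compounds. Wild-type MSCs held 466, 482, 756 and 428 and deficient MSCs 1878, 745, 1405 and 2199. Mouse F lay just below the highest wild-type mouse, C. In OBs the values were 46.4, 38.4, 35.4 and 20.6 against 499, 386, 469 and 283, with no overlap. The shared effect was 2.50 ± 0.21 (adjusted p = 0.00335), made of 1.47 ± 0.31 in MSCs and 3.53 ± 0.27 in OBs. The difference was 2.05 ± 0.40 (unadjusted p = 0.000252, adjusted p = 0.15).

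Apod (chr16:31296192-31314808), which encodes the lipid-binding apolipoprotein D, had the same form, with a larger effect in OBs. Its values were 9906, 4307, 13360.2 and 5362 in wild-type MSCs and 65492, 14909, 31209.9 and 66546 in deficient MSCs. OB libraries held 516, 358, 344 and 136 and 19998, 2898, 3045 and 3266, so that mouse E alone was several times above the other 3 deficient mice. The shared effect was 3.17 ± 0.50 (adjusted p = 0.0433) and the difference 1.66 ± 0.52 (adjusted p = 0.22). Galnt15 (chr14:32028989-32062197), of the enzyme family that starts mucin-type O-glycosylation, rose by a shared 3.73 ± 0.59 (adjusted p = 0.0433). Its MSC values were 1723, 1106, 626 and 279.5 against 12911, 2708, 7985 and 10738. Its OB values were 39.3, 35.8, 20.3 and 11 against 1332, 143, 545 and 394. Mouse F was the lowest deficient mouse in both sorts.

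Klf15 is described with its gene group below, and the other 5 of the 10 genes named for their increase, all of which had a mean of 50 or more, are given here. 4833403I15Rik, an uncharacterized locus, had a shared effect of 3.95 ± 0.59, with wild-type OB values of 2.36, 0.65, 2.26 and 5.87 against 194, 20.2, 19 and 41.3, so that its OB effect depends on the 1 added to each value. Slc10a6, a transporter of sulfated steroids, rose by a shared 3.33 ± 0.54, Serpina3n, a secreted serine protease inhibitor, by 2.78 ± 0.45, and Hif3a, a member of the hypoxia-inducible factor family, by 2.69 ± 0.46. Abca8a, a membrane lipid transporter, rose by 2.10 ± 0.35. Adjusted p-values of these 5 were 0.0433 to 0.0467. None of them passed the difference test. Among the 5 the estimates for Serpina3n were closest to each other, 2.81 ± 0.48 in MSCs and 2.76 ± 0.48 in OBs, with a 95% interval of the difference from -0.90 to 0.80. The largest shared increase of all was that of Upk1b, a membrane protein of the urothelium, at 4.42 ± 0.76 (adjusted p = 0.0462), whose mean of 45 lay below that limit and which held 0 to 2.2 in wild-type OBs. Outside the naming rule, Fst, which encodes the activin-binding follistatin, rose by 1.48 ± 0.25 (adjusted p = 0.0462) and was named after its values were seen.

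**Figure D2:**
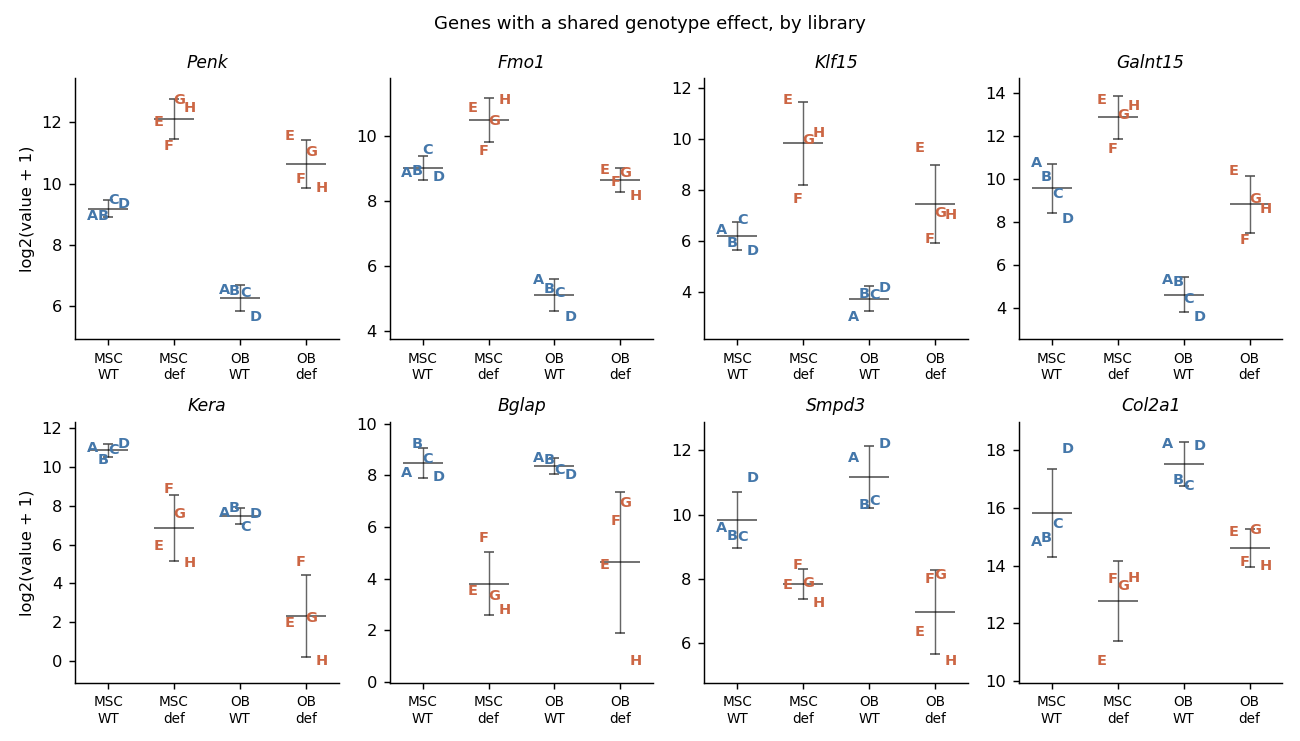
log2(value + 1) of 8 genes that passed the shared test in each of the 16 libraries. Letters are mice (blue, A to D, the wild-type mice; red, E to H, the deficient mice, def), black bars the mean ± SD of 4 mice. Penk, Fmo1, Klf15 and Galnt15 stand higher and Kera, Bglap, Smpd3 and Col2a1 lower in deficient mice of both sorts; for Fmo1, mouse F overlaps mouse C in MSCs.

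Most genes of bone mineralization and of cartilage had effects below 0 in both sorts. Of 34 osteoblast and mineralization genes, 31 were tested. Their median shared effect was -0.99 (MSCs -0.91, OBs -1.08), beside -0.02 over all genes tested. Effects were below 0 in both sorts for 24 and above 0 in both for 1. After adjustment 6 passed, all lower (Bglap, Bglap2, Smpd3, Car12, Cpz and Phospho1), and at an unadjusted p under 0.05 there were 18 lower and 1 higher. The median difference was 0.00671, and 0 of the 31 passed the adjusted difference test, with 3 higher and 4 lower unadjusted. Fewer osteoblast-lineage cells in a library and less of these RNAs per cell cannot be told apart in bulk RNA, here or in the lists below. Without mouse F, 18 of the 31 passed, without G and H 2 did, and with the Xist level or the animal-number digits as a covariate 1 did (19 lower unadjusted with either). Unadjusted counts of this and every list below stand beside shares over all genes tested, with all mice. These were 10.7% higher and 11.4% lower for the shared effect, and 7.76% higher and 7.29% lower for the difference.

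Phospho1 (chr11:95824499-95832140) encodes a phosphatase and Smpd3 (chr8:106252548-106337988) an enzyme that releases ceramide from a membrane lipid. Both have a part in bone mineralization. Phospho1 was 944, 848, 624 and 1255 in wild-type MSCs and 372, 348, 229 and 247 in deficient MSCs, and 1160.4, 615, 479 and 1261 against 110.2, 159.6, 131 and 90.9 in OBs. The genotypes did not overlap in either sort. Its shared effect was -2.17 ± 0.25 (adjusted p = 0.0308) and passed in 17 of 21 alternatives. Abi3, an actin regulator on the opposite strand, overlaps Phospho1 and also passed, at -1.79 ± 0.21. Reads of the 2 cannot be told apart in the overlap unless the counting used strand, which the sources used here do not state. Smpd3 was 773, 641, 630.5 and 2242 against 224, 347, 233 and 153 in MSCs and 3486, 1258, 1371 and 4709 against 81.5, 255, 281 and 42.8 in OBs. Its shared effect was -3.09 ± 0.49 (adjusted p = 0.0433). For both genes the estimate was further below 0 in OBs: -2.74 ± 0.31 against -1.60 ± 0.24 in MSCs for Phospho1, and -4.18 ± 0.64 against -1.99 ± 0.39 for Smpd3. Unadjusted p-values of these differences were 0.000703 and 0.000254, and neither passed after adjustment (0.155 and 0.15).

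Osteocalcin, a bone matrix protein made by mature osteoblasts, comes from the neighbouring copies Bglap (chr3:88383501-88384464) and Bglap2 (chr3:88377736-88378699), whose sequences are nearly identical, so that the split of reads between them is uncertain. Bglap values were 272, 594, 398 and 246 in wild-type MSCs and 10.6, 46.4, 9.15 and 5.84 in deficient MSCs. In OBs they were 403, 382, 294 and 259.9 against 22, 74.2, 122 and 0.752, with mouse H near the counting floor. The shared effect was -4.21 ± 0.74 for Bglap (adjusted p = 0.0471) and -4.11 ± 0.71 for Bglap2 (adjusted p = 0.047). Both copies lie near the edited Mir9-1 locus on chromosome 3 (hairpin at chr3:88215598-88215686). Whether the edit or DNA linked to it acts on these copies directly was not tested. Cpz, a secreted carboxypeptidase, had a shared effect of -2.38 ± 0.37, and Car12, a carbonic anhydrase, one of -2.64 ± 0.45, and both passed. Col1a1, the main collagen chain of bone, had a shared effect of -1.88 ± 0.44 with no overlap in either sort and did not pass (adjusted p = 0.087). The transcription factors of the lineage had smaller effects that did not pass: -0.88 ± 0.29 for Sp7 and -0.22 ± 0.13 for Runx2.

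Of 24 cartilage genes, 21 were tested, with a median shared effect of -1.36 (MSCs -1.39, OBs -1.62). Effects were below 0 in both sorts for 17. After adjustment 5 passed, all lower: Col2a1, Col9a1, Col11a1, Col11a2 and Matn3, which encode the cartilage collagens and a matrilin that links them. At an unadjusted p under 0.05 there were 14 lower and 1 higher. Without F, 8 passed lower and 1 higher, without G and H 2 passed, with the animal-number digits as a covariate 3 lower and 1 higher, and with the Xist level 0 (14 lower and 1 higher unadjusted). Col2a1 (chr15:97975602-98004695), the main collagen of cartilage, was 28777, 31826, 44494 and 272356 in wild-type MSCs and 1663, 11881, 10103 and 12300.5 in deficient MSCs. OB libraries held 303804, 128638, 111103 and 286650 and 36826, 17701, 38279 and 16362. Wild-type mouse D was well above the other MSC libraries, and A and D were the highest OB libraries. The shared effect was -2.96 ± 0.46 (adjusted p = 0.0433). Sox9, the transcription factor that drives cartilage genes, had a shared effect of -0.26 ± 0.24 (adjusted p = 0.549), and Acan, the main cartilage proteoglycan, one of -1.01 ± 0.33 (adjusted p = 0.145). Cytl1, a small secreted protein of cartilage, had effects above 0, 0.84 ± 0.52 in MSCs and 1.69 ± 0.16 in OBs, and its shared effect did not pass (adjusted p = 0.0745).

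The lowest shared effect of the named genes was that of Kera (chr10:97606879-97613692), which encodes the small proteoglycan keratocan. It was 2029, 1314, 1894 and 2331 in wild-type MSCs and 59.9, 473, 187 and 32.1 in deficient MSCs. In OBs it was 196, 234, 119 and 191 against 2.94, 33.2, 3.66 and 0. The shared effect of -4.59 ± 0.75 (adjusted p = 0.0438) understates the change in OBs, since 1 is added to values near 0. Mouse F was the highest deficient mouse in both sorts. Spon2, a secreted matrix protein, had a shared effect of -3.23 ± 0.58 (adjusted p = 0.0484) and Arsi, an arylsulfatase, one of -3.34 ± 0.46 (adjusted p = 0.043). Arsi is likewise near the floor in deficient OBs, at 6.61, 9.12, 1.46 and 0.752. Over 40 genes of collagens and matrix, all tested, the median shared effect was -0.69. Of these, 27 had effects below 0 in both sorts and 3 passed, all lower: Kera, Spon2 and the microfibril protein Mfap4. Unadjusted, 20 were lower and 3 higher. Without F, 19 passed lower and 1 higher and the median was -1, without E and F 21 passed lower, and without G and H 1 passed higher, 0 lower, with a median of -0.35. With the Xist level or the animal-number digits as a covariate 0 passed (22 lower unadjusted with either).

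Genes that glucocorticoid hormones are known to induce had higher levels in deficient mice in both sorts. Glucocorticoids, such as corticosterone in the mouse, bind a nuclear receptor that switches on target genes, among them its own brake Fkbp5, the factor Klf15 and the metal-binding metallothioneins. All 20 members of this list were tested, and all 20 had effects above 0 in MSCs and in OBs. The median effect was 1.30 in MSCs and 0.76 in OBs, for a median shared effect of 0.99. After adjustment 2 passed, Klf15 and Fkbp5, and 17 of 20 were higher at an unadjusted p under 0.05. The mean log2 level of the list was 10.58 to 11.16 in wild-type MSC libraries and 11.62 to 13.03 in deficient ones, and 9.37 to 9.64 and 9.88 to 11.43 in OBs. The genotypes did not overlap in either sort, and mouse E was the highest in both. Without F, 13 passed, and without E and F, 10, while 0 passed without G and H or with the Xist level as a covariate (17 higher unadjusted with either) or with the animal-number digits (18 unadjusted). Immediate early genes, which answer many stimuli quickly, also had effects mostly above 0. Of 28 tested, 21 had effects above 0 in both sorts and 11 were higher unadjusted, with a median shared effect of 0.26 and 0 passing. Their mean log2 level was 12.97 to 13.16 in wild-type and 13.32 to 13.46 in deficient MSC libraries. In OBs it was 11.63 to 11.83 and 11.51 to 12.39, which overlapped. Their part in the result was not tested.

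Klf15 (chr6:90462576-90475238), a Krüppel-like factor of amino acid and lipid metabolism, was 84.6, 59.6, 112 and 48.1 in wild-type MSCs and 2929, 197, 983 and 1194 in deficient MSCs. In OBs it was 7.07, 14.3, 13.6 and 16.9 against 788, 66.4, 135 and 129. Mouse E was the highest and mouse F the lowest deficient mouse in both sorts, and F was still above every wild-type mouse. The shared effect was 3.67 ± 0.62 (adjusted p = 0.0462) and the difference 0.07 ± 0.51, with a 95% interval from -1.04 to 1.19. Zbtb16, a zinc-finger repressor, was 387, 145, 201 and 213 against 4384, 529.7, 1612 and 2772 in MSCs and 152, 121, 134 and 94.7 against 1027, 194, 216 and 213 in OBs. The genotypes did not overlap in either sort, yet the shared effect of 2.16 ± 0.48 did not pass (adjusted p = 0.0745). Shared effects that likewise did not pass were 1.32 ± 0.25 for Tsc22d3, which encodes the anti-inflammatory protein GILZ, 1.62 ± 0.30 and 1.86 ± 0.39 for the metallothioneins Mt1 and Mt2, and 2.32 ± 0.54 for Pdk4, a kinase that limits glucose oxidation (adjusted p from 0.0565 to 0.0836). Nfkbia, at 0.17 ± 0.14, and Dusp1, at 0.25 ± 0.18, had the smallest effects of the list together with Gadd45a, at 0.26 ± 0.14.

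**Figure D3:**
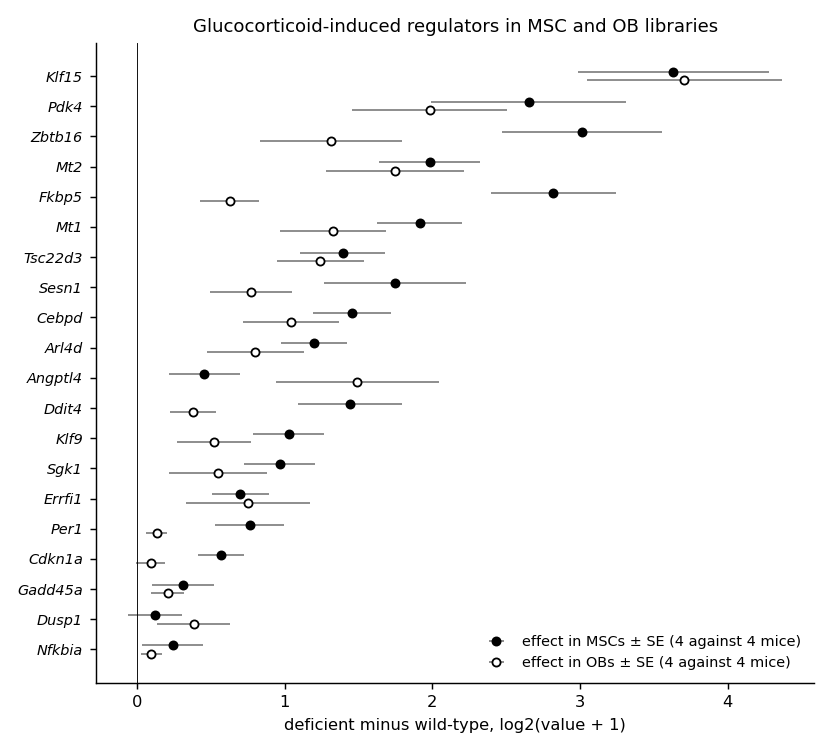
Genotype effect ± SE (4 against 4 mice) of each of the 20 glucocorticoid-induced regulators in MSC libraries (filled) and OB libraries (open), deficient minus wild-type, in log2(value + 1). All 40 estimates lie above 0; Fkbp5 and Zbtb16 stand further from 0 in MSCs, Klf15 at nearly equal distance.

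Promoter windows of these genes were searched for the palindromic glucocorticoid receptor motif GNACANNNTGTNC, which reads the same on both strands. The windows run from 250 bases before to 50 after the annotated start (RefSeq, GRCm38.p6). Of the 20 list members, 17 had a window, and 2 of them held the motif (11.8%), Sgk1 and Mt1, beside 0.537% of all 27025 symbols in the table. Of the 36 genes that passed the shared test in the higher direction, 26 had a window and 3 held it (11.5%), Serpina3n, Slc10a6 and Txnip, beside 0.447% of the tested genes with a window. The search was made with the values known and has no test, and the counts of 2 and 3 are small. The list was made of genes known to be induced by glucocorticoids, and the 36 were selected from these same data. What raised these genes was not tested. The 5 windows are shown 5′ to 3′ on the strand of the gene, with the motif in capitals:
Sgk1 (chr10:21993640-21993939, + strand): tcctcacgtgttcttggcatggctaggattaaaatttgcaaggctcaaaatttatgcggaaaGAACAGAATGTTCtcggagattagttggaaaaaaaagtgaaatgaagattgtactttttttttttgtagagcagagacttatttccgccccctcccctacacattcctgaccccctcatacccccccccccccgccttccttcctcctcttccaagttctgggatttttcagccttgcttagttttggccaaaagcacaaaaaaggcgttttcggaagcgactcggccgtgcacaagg
Mt1 (chr8:94178839-94179138, + strand): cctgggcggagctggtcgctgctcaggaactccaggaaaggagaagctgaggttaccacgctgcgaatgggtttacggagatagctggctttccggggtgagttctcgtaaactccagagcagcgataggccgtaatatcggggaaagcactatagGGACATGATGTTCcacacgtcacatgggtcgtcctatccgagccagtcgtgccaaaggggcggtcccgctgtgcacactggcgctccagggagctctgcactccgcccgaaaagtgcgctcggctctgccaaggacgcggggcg
Serpina3n (chr12:104406458-104406757, + strand): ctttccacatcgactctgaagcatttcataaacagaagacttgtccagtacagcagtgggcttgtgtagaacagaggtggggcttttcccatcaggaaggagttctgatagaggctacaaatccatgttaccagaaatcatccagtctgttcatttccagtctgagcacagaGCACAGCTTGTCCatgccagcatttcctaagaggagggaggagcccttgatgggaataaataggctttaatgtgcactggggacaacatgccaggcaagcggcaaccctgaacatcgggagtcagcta
Slc10a6 (chr5:103629354-103629653, - strand): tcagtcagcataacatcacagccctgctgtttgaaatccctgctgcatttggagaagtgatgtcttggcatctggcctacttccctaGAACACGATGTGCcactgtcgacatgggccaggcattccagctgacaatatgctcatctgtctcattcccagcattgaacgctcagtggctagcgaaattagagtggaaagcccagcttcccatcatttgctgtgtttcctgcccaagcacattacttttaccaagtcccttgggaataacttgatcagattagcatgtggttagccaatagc
Txnip (chr3:96557707-96558006, + strand): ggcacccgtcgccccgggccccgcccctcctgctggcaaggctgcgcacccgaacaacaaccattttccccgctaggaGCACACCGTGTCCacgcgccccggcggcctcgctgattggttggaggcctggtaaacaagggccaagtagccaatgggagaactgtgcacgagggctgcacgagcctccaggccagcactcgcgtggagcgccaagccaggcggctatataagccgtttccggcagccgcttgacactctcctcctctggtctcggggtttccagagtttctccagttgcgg
A match describes the letters of the window and shows no binding. Sgk1, a kinase of ion transport, had a shared effect of 0.76 ± 0.26 that did not pass (adjusted p = 0.155). Txnip, which encodes the thioredoxin-binding brake on glucose uptake, rose by a shared 1.44 ± 0.22 (adjusted p = 0.0433). Gm15441, an antisense gene that spans Txnip, also passed, at 1.43 ± 0.23, and reads of this pair likewise cannot be told apart unless strand was used.

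Of the 3 genes whose genotype effect differed between sorts, Fkbp5 (chr17:28399094-28517527) rose across the sorts, and more in MSCs. It encodes a chaperone that lowers the affinity of the glucocorticoid receptor. Its MSC values were 608, 456, 382 and 374 in wild-type mice and 8135, 1616, 1914 and 3935 in deficient mice. In OBs the wild-type values were close together, 972, 961, 942 and 967, and the deficient values 2468, 1191, 1294 and 1276. The genotypes did not overlap in either sort. The effect was 2.82 ± 0.42 in MSCs and 0.63 ± 0.20 in OBs, a difference of -2.19 ± 0.29 (95% interval -2.83 to -1.55, adjusted p = 0.0496). Its shared effect of 1.72 ± 0.31 passed as well (adjusted p = 0.0492). In the glucocorticoid list as a whole the difference was below 0 for 16 of 20, with a median of -0.42 beside 0.03 over all genes, and 8 were lower and 0 higher at an unadjusted p under 0.05. Without G and H the median difference was -0.0977, and without E and F it was -0.727.

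Dio2 (chr12:90724552-90738438) encodes the deiodinase that activates thyroid hormone inside cells, and its effect was further below 0 in MSCs. Wild-type MSCs held 4768, 5608, 4207 and 3867 and deficient MSCs 1106, 1931, 536 and 529, with no overlap. In OBs the values were 549, 653, 411 and 309 and 353, 495, 249 and 176, which did overlap. The effect was -2.37 ± 0.36 in MSCs and -0.64 ± 0.32 in OBs, a difference of 1.73 ± 0.20 (95% interval 1.30 to 2.16, adjusted p = 0.0269). C1qtnf6 (chr15:78523346-78531416), a secreted C1q and TNF related protein, was 2785, 2474, 2148 and 2921 against 1076, 1119, 1009 and 696 in MSCs. In OBs it was 926, 948, 731 and 997 against 823, 655, 746 and 580.2, with an overlap that was absent in MSCs. The effects were -1.42 ± 0.17 and -0.36 ± 0.13, a difference of 1.05 ± 0.14 (95% interval 0.74 to 1.37, adjusted p = 0.0496). All 3 calls sit close to the threshold: leaving out any mouse other than F left 0 genes passing in limma (1536 to 2209 at an unadjusted p under 0.05), and without F there were 162. In edgeR on the recovered reads 1 gene passed (1999 unadjusted), and in DESeq2 193 did.

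**Figure D4:**
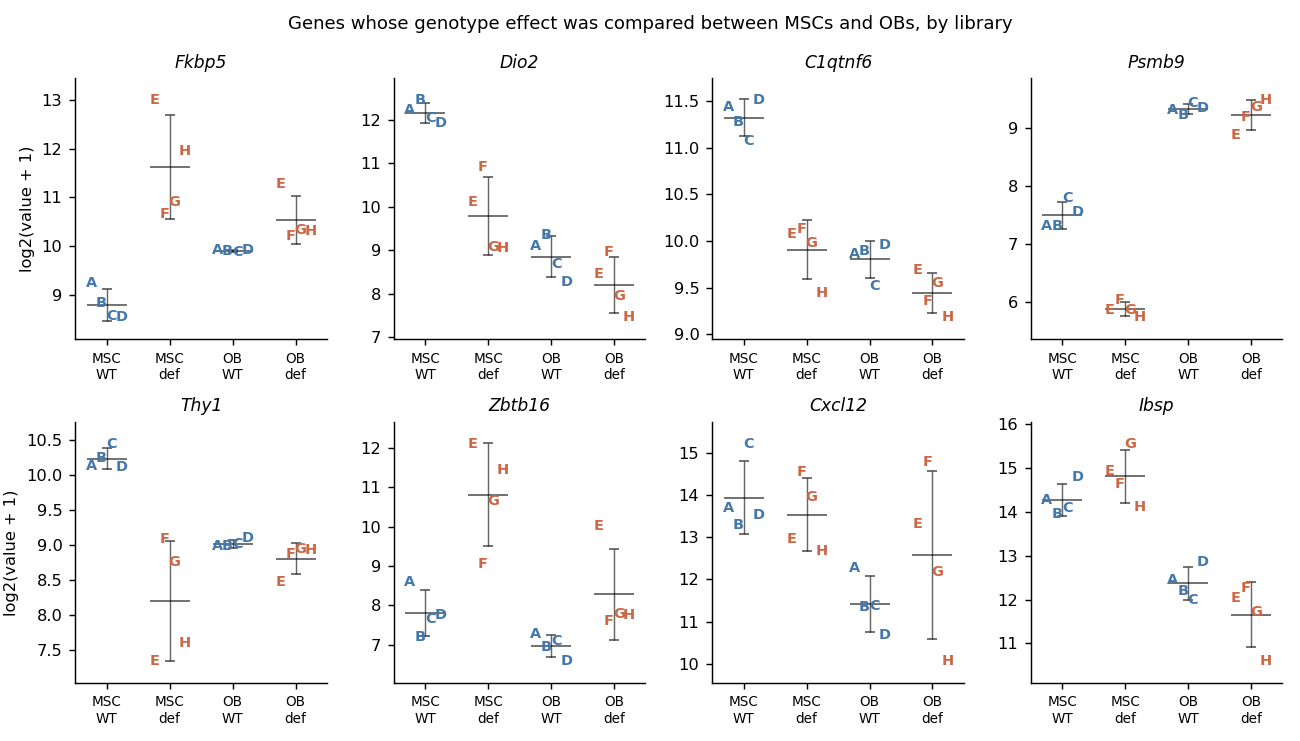
log2(value + 1) of 8 genes in each of the 16 libraries, with letters for mice (blue, A to D, the wild-type mice; red, E to H, the deficient mice, def) and black bars for the mean ± SD of 4 mice. Fkbp5, Dio2 and C1qtnf6 passed the difference test; their genotypes stand further apart in MSCs than in OBs. The other 5 genes did not pass it.

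Below these 3, the naming rule took the genes with the smallest p in each direction, none of which passed. On the side of a larger fall in MSCs were Psmb9, a subunit of the immunoproteasome, Cilp2, a cartilage matrix protein, and Thy1, a surface glycoprotein of stromal cells. Psmb9 was 158, 158, 221 and 186 in wild-type MSCs and 57.5, 64.4, 57.5 and 52.6 in deficient MSCs, with the 4 deficient values close together. In OBs it was 628, 593, 686 and 648 and 466, 577, 656 and 709.5, which overlapped. The difference was 1.51 ± 0.23 (adjusted p = 0.0952), and its shared effect of -0.86 ± 0.12 passed (adjusted p = 0.0433). Thy1 was 1123, 1216, 1392 and 1106 against 162, 545, 433 and 193 in MSCs and 506, 505, 518 and 549.9 against 356, 468, 494 and 486 in OBs. Its genotypes did not overlap in either sort, though the gap was narrow in OBs, and the difference was 1.82 ± 0.31 (adjusted p = 0.107). That of Cilp2 was 0.94 ± 0.15 (adjusted p = 0.107).

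On the side of a larger rise in MSCs were Tsc1, a brake on the growth kinase mTOR, Jade1, a subunit of a histone acetyltransferase, Map3k6, a stress kinase, and Thsd1, a membrane protein with a thrombospondin repeat. Thsd1 was 88.8, 32.4, 55.4 and 60.1 in wild-type MSCs and 223, 175, 159 and 186 in deficient MSCs, with no overlap, while the OB values of 555, 538, 634 and 625 and 470.2, 522, 564 and 634 overlapped. Its difference was -1.82 ± 0.31 (adjusted p = 0.107). Those of the other 3 were -0.99 ± 0.15 for Tsc1, -0.86 ± 0.14 for Jade1 and -1.31 ± 0.22 for Map3k6 (adjusted p from 0.0894 to 0.107).

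Genes whose effects had opposite signs, each of at least 0.5 log2 units, had no member that passed the difference test. With a negative effect in MSCs and a positive one in OBs, the 5 with the smallest p were Snhg11, Cecr2, Steap2, Kcnj2 and Sncaip, whose differences ran from 1.30 to 2.72 (adjusted p from 0.119 to 0.18). Snhg11, a host transcript of small nucleolar RNAs, had effects of -0.55 ± 0.54 in MSCs and 2.16 ± 0.55 in OBs. In the other direction stood Ibsp, Slco2b1, Fcer2a, Slc38a4 and Tcfl5 (adjusted p from 0.155 to 0.242). Ibsp encodes bone sialoprotein, which binds mineral in bone matrix. Its values were 19841, 15871, 17416 and 28186 in wild-type MSCs and 30971, 25478, 47688 and 17681 in deficient MSCs, and 5552, 4668, 4059 and 7368 against 4218, 4889, 3348 and 1551 in OBs. The genotypes overlapped in both sorts, with effects of 0.53 ± 0.30 and -0.71 ± 0.33 and a difference of -1.24 ± 0.27 (adjusted p = 0.155).

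Ribosomal protein genes, the parts of the machine that makes protein, had differences of 1 sign, none of which passed. All 81 had a difference below 0, with a median of -0.39, made of a median effect of 0.37 in MSCs and -0.03 in OBs. Unadjusted, 62 were lower, and 0 passed after adjustment. Rps27 was 2989, 3141, 2819 and 2912 in wild-type MSCs and 5562, 3637, 5440.4 and 5271 in deficient MSCs, with no overlap. In OBs it was 6092, 6021, 6771 and 6452 and 6181, 5703, 6651 and 7244, which overlapped. Its difference was -0.71 ± 0.14 (adjusted p = 0.15). Reads of several of these genes can be shared with processed copies elsewhere in the genome. Beside this, of 40 cell cycle genes the median effect was -0.40 in MSCs and -0.08 in OBs, with 10 differences higher and 1 lower unadjusted and 0 passing.

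Genes of B lymphocytes and of the interferon response had median effects further below 0 in MSCs than in OBs. Of 22 B lineage genes, 17 were tested, with a median effect of -1.59 in MSCs and -0.36 in OBs. One passed the shared test, Cd79b, the signalling chain of the B cell receptor, at -1.03 ± 0.16 (adjusted p = 0.0433). Its MSC values were 199.8, 239.5, 185 and 159 against 69.3, 51.5, 87.6 and 42.4 and its OB values 271, 265, 339.8 and 235 against 202, 212, 208 and 215, with no overlap in either sort. The difference had a median of 1.19, with 7 of 17 higher unadjusted and 0 passing. The summed value of the whole list was 3905 to 5216 in wild-type MSC libraries, 2574 to 4285 in deficient ones, 1954 to 2226 in wild-type OBs and 1899 to 2158 in deficient OBs. The part of B cells among the sorted cells in this result was not tested. Of the other blood lineages, neutrophil genes had a median shared effect of -0.51 over 19 tested and macrophage genes -0.35 over 19, with 0 passing in either. Rag1, an enzyme of receptor rearrangement, was below the minimum in OBs and untested, at 105, 76.4, 154 and 119 in wild-type MSCs and 5.87, 0, 10.5 and 0 in deficient MSCs.

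The median effect of 32 interferon response genes was -0.64 in MSCs and -0.13 in OBs, with 11 differences higher and 1 lower unadjusted. Oas2, an antiviral RNA sensor, passed the shared test at -1.18 ± 0.21 (adjusted p = 0.0484). Over 20 antigen presentation genes the medians were -0.47 and -0.10, with 7 differences higher unadjusted and 0 passing. H2-Q7 and H2-Q9 had the same value in each library and share reads, so their 2 calls rest on the same reads. Secretory pathway genes, which fold and export proteins such as collagen, had medians of -0.44 and -0.13 over 35 genes, with 22 lower in the shared test and 14 differences higher unadjusted. For 24 genes of cholesterol synthesis the medians were -0.71 and -0.38, with 16 lower in the shared test unadjusted. With all mice 0 genes of these last 2 lists passed. Without F, 20 secretory and 15 cholesterol genes passed lower in the shared test, and without E and F 16 and 7 did. In the same test without F, 9 interferon genes passed lower and 1 higher, 3 antigen presentation and 3 B lineage genes lower, and 21 ribosomal protein genes higher.

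**Figure D5:**
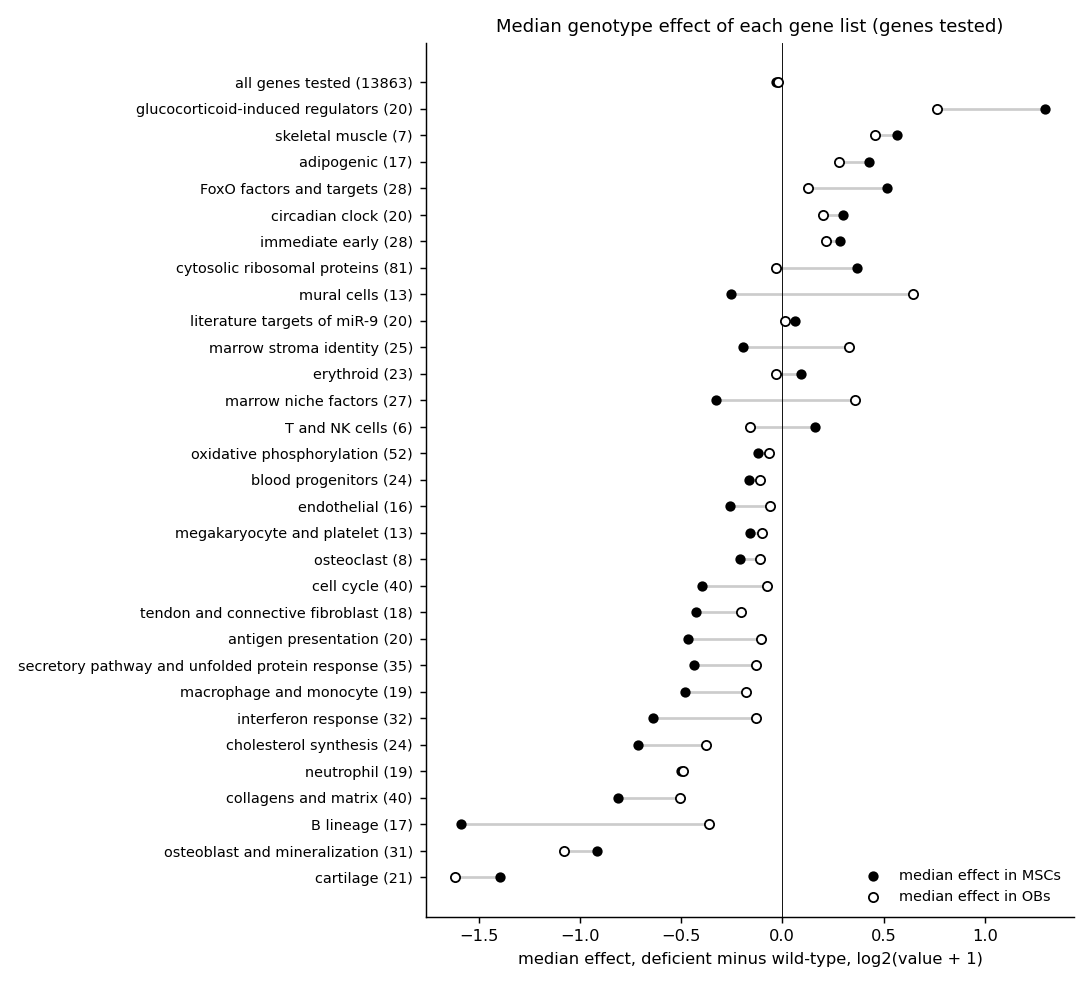
Median genotype effect, in log2(value + 1), of the tested genes of each list (without the X- and Y-linked genes used as a check) in MSC libraries (filled) and OB libraries (open), with the number of genes tested in brackets. Lists are ordered by the median shared effect, with all genes tested on top near 0. Cartilage, osteoblast and B lineage genes are at the bottom and glucocorticoid-induced regulators just under the all-genes line; of the lists drawn, the points of the B lineage, mural cell and niche lists lie furthest apart.

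Among factors by which marrow stroma supports blood cells, Cxcl12 and Kitl were above every wild-type OB library in 2 of the 4 deficient OB libraries. With all mice none of the factors passed either test. Of 29 niche factors, 27 were tested, with a median effect of -0.33 in MSCs and 0.36 in OBs. The difference was above 0 for 21, with a median of 0.61, 6 higher and 0 lower unadjusted and 0 passing. It rested on which pair of deficient mice was used: without G and H the median was 1.01 with 11 passing higher, and without E and F it was 0.00835 with 1 passing lower. In MSCs, E and F had low Xist and high Ddx3y and G and H the reverse, so the pairs cannot be told apart from that split. Nor can they be told apart from the leading digits of the animal numbers. Cxcl12, which retains lymphoid and stem cells in the marrow, was 13374, 10076, 38088 and 11878 in wild-type MSCs and 8012, 23991, 15933 and 6556 in deficient MSCs. In OBs it was 4979, 2618, 2661 and 1635 against 10219, 28405, 4614 and 1069.5, so that E and F were above and H below all wild-type mice. Kitl, the stem cell factor, was 313, 204, 146 and 123 against 1394, 1236, 310.0 and 154 in OBs, again with E and F highest. The differences of 1.57 ± 0.66 for Cxcl12 and 1.36 ± 0.73 for Kitl did not pass (adjusted p = 0.307 and 0.399), nor did that of the lymphoid growth factor Il7, 1.31 ± 0.70 (adjusted p = 0.398). Igf1, insulin-like growth factor 1, had a shared effect of -1.13 ± 0.33 (adjusted p = 0.121).

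Markers of stroma moved with these values. The mean log2 level of 26 stroma identity genes in OB libraries was 7.32 to 7.86 in wild-type mice, and in deficient mice it was 8.36 in E, 8.71 in F, 7.51 in G and 6.56 in H. Without E and F the difference of Kitl was -0.00607 and that of Cxcl12 0.32. Of the 25 stroma genes tested, the median effect was -0.19 in MSCs and 0.33 in OBs, with 6 differences higher and 0 lower unadjusted and 0 passing. Mural cell genes, from the smooth muscle coat of vessels, had medians of -0.25 and 0.65 over 13 tested. For stroma genes the median difference of 0.56 was 0.00342 without E and F and 1.15 (13 passing higher) without G and H. For mural cell genes that of 0.85 turned to -0.69 without E and F and was 2.2 (5 passing higher) without G and H. Skeletal muscle markers were also uneven: the mean log2 level of 19 such genes was 2.95 to 4.44 in wild-type MSCs and 3.41, 3.71, 5.36 and 6.57 in deficient MSCs E to H. Their part in the shared effects was not tested, and without G and H 53 genes passed the shared test, 15 of them among the 79.

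Genes proposed in the literature as miR-9 targets showed no common direction. Of 26 listed, 20 were tested, with a median effect of 0.06 in MSCs and 0.01 in OBs. Effects were above 0 in both sorts for 7 and below 0 in both for 6, and 4 were higher and 3 lower at an unadjusted p under 0.05, with 0 passing (3 higher and 1 lower without F). Of all 13863 genes, 3989 were above 0 in both sorts and 5198 below 0 in both. Unadjusted, 10.7% of all genes were higher and 11.4% lower, and without F 715 genes passed higher and 943 lower. Sirt1, a deacetylase, had the smallest p of the shared test, at 0.50 ± 0.11 (adjusted p = 0.0786). Foxo3, a stress-response transcription factor, had an effect of 0.80 ± 0.18 in MSCs and 0.13 ± 0.08 in OBs, with a shared effect that did not pass (adjusted p = 0.0981). FoxO factors and their targets, 28 genes tested, had medians of 0.52 and 0.13. Of these, 22 had effects above 0 in both sorts, Txnip passed, and 13 were higher and 2 lower unadjusted; without F 12 passed higher. Fat-cell genes, 17 tested, had medians of 0.43 and 0.28, with 6 higher unadjusted and 0 passing (6 higher and 1 lower without F). Clock genes, 20 tested, had a median shared effect of 0.28 with 16 above 0 in both sorts and 0 passing (2 higher without F). Per2, a core clock repressor, had the smallest p at 0.80 ± 0.15 (adjusted p = 0.058).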

How the data were processed

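Poly(A) RNA-seq was made from 16 libraries labelled with the numbers of 8 mice. The deposited unit is a signal: normalized counts per gene symbol, which the authors obtained with DESeq2 1.24.0 on the mm10 build, per the submitters' processing notes. Aligner, counting program, strand setting and annotation are not stated in the labels or headers (not given in the sources used here). Each deposited value was a whole multiple of 1 step per library (100% whole within 0.01), so reads could be recovered. Library depth was 10148197 to 18962771 reads, and 3 reads, the limit that a count of 0 allows, equal 1.95 to 4.51 in value.

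Values were taken as log2(value + 1). For each mouse the mean of its 2 libraries (shared effect) and the OB minus MSC difference were formed and tested between genotypes, 4 mice against 4, with limma 3.58.1 (empirical Bayes with trend, two-sided) in R 4.3.3. P-values were Benjamini-Hochberg adjusted over 13863 genes. Effects in single sorts are estimates with no call. Pairing rests on the animal numbers in the labels. The deviations of the 2 libraries of a mouse from their group means correlated at r = 0.0528 to 0.362, with 5 of 8 mice correlating best with their own number. B, C and G correlated better with another number. The blocked design was kept, but these correlations are weak support for it.

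The members, 32 gene lists and tests were chosen with earlier results of these data known, and some lists came from an earlier analysis. Named genes were, per direction, the 10 with the largest shared change among passing genes whose mean reached 50 and whose mouse means did not overlap. For the difference they were passing genes with that mean, filled to 5 per direction by smallest p. Further rules took 5 genes per direction with opposite effects of at least 0.5, up to 2 passing members per list and direction (otherwise its top gene by p), and 20 more genes listed by name. Not every gene so taken is printed. Abca5, Abca6, Abca8b, Abca9, Abi3, Acan, Col11a1, Col11a2, Dlk1, Dusp1, Fst, Gadd45a, Gm15441, H19, H2-Q7, H2-Q9, Igf2, Matn3, Mfap4, Mt1, Mt2, Nfkbia, Nox4, Pdk4, Peg3, Peg10, Runx2, Sgk1, Sox9, Sp7, Col26a1, Rnf182, Svep1, Tsc22d3, Upk1b and Zim1 were named after their values were seen.

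Alternatives were quantile normalization, a minimum value of 50 or none, a pseudocount of 5, the pairing left out or as a random term, array weights, DESeq2 1.42.0 and edgeR 4.0.16 (TMM scaling and its quasi-likelihood test) on recovered reads, the leading digits of the animal number as a covariate, an absolute effect of 1 or more, leaving out each mouse, E and F, or G and H, and, added after seeing the data, the Xist level as a covariate. On recovered reads edgeR called 1236 genes for the shared effect and 1 for the difference. The code was tested on simulated data. Coordinates are GRCm38/mm10 (GENCODE), matched for 13216 genes.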

Additional observations from a re-analysis of the deposited data

Results flagged for a closer look

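Of 88 groups of 4 libraries (22 genes), 12 held 1 library that stood far from the other 3 by Dixon's criterion. Its rate of about 1 in 20 holds for independent, normally distributed values. The values here were not log-transformed, the genes were chosen from these data and the groups share libraries, so the count cannot be set against that rate. Mouse E in deficient OBs was above the others for 4 genes: Apod (20000 against 2898 to 3266), Klf15 (788.3 against 66.43 to 134.5), Fkbp5 (2468 against 1191 to 1294) and Zbtb16 (1027 against 194.1 to 216.4). Mouse D in wild-type MSCs was above the others for Col2a1 (272400 against 28780 to 44490), Col9a1 (5801 against 1260 to 1712) and Smpd3 (2242 against 630.5 to 772.9). In wild-type OBs the same mouse was below them for Penk (49.19 against 85.88 to 91.13). Mouse C in wild-type MSCs was above the others for Fmo1 (756 against 428.3 to 481.6) and Cxcl12 (38090 against 10080 to 13370). Mouse F was above the other deficient mice for Bglap in MSCs (46.39 against 5.845 to 10.56) and for Kera in OBs (33.22 against 0 to 3.655).

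The genotype effect differed between the sorts by its own test for Dio2 (1.729), C1qtnf6 (1.055) and Fkbp5 (-2.191), in log2 units, OB minus MSC.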

How the results depend on the processing

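The 79 genes of the shared test became 92 with a pseudocount of 5, 76 with no filter, 62 with a filter of 50, 56 at an absolute effect of 1 or more and 53 without G and H. They became 121 with quantile normalization (51.2% higher against 45.6%), 1236 in edgeR (63.2% higher), 2121 in DESeq2 (53.8% higher), 2803 with array weights, 922 without E and F, 21 with the animal-number digits and 6 with the Xist level as a covariate. Leaving out 1 mouse gave 2 to 1658. Without the pairing (no replicate block) 1176 passed, and with the replicate block as a random term 621. The 3 genes of the difference test became 1 with no filter, 1 with no replicate block, 1 with the block as a random term, 1 in edgeR, 193 in DESeq2, 63 with array weights, 12 with the animal-number digits, 168 without E and F and 365 without G and H. Leaving out 1 mouse gave 0 to 162. Other settings gave 2 to 4. The lone genes without the pairing or with the random term were not among the 3. The share of higher differences was 66.7% of 3 genes, 50% of 2 with quantile normalization, 100% of 1 in edgeR and 53.9% of 193 in DESeq2. Shares of so few genes in the first settings show no shift in direction. The cause of these changes was not tested. No scaling moved the median effect of all genes by more than 0.1.

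For single genes, 0 of 1069 shared values changed sign and 18 of 1131 differences did, in 4 genes. Klf15 was at -0.2022 with a pseudocount of 5, -0.06254 with array weights, -0.5816 without E and F and from -0.2458 to 0.4046 without 1 mouse. Serpina3n was at 0.02103 in edgeR, 0.5681 without G and H and from -0.4123 to 0.23 without 1 mouse. Col2a1 was at -0.03069 with array weights, -0.5356 without E and F, -0.2428 with the Xist level and from -0.7328 to 0.7077 without 1 mouse. Kitl was at -0.006074 without E and F.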

Other observations

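Imprinted genes, which are read from the copy of 1 parent only, were looked at after their values were seen and have no test as a group. Of 20 tested, 3 passed the shared test, all higher, beside 0.26% of all genes tested. Effects were above 0 in both sorts for 11 and below 0 in both for 4, with a median shared effect of 0.16. Of all 13863 genes, 3989 were above 0 in both and 5198 below 0 in both. Zim1 and Peg3 are neighbours on chromosome 7. Zim1 was 212, 232, 319 and 325 in wild-type MSCs and 783, 356, 824 and 1200 in deficient MSCs, and 67.6, 37.1, 27.1 and 56.5 against 286, 158, 132 and 136 in OBs. Its shared effect was 1.67 ± 0.23 and that of Peg3 1.26 ± 0.22 (adjusted p = 0.0413 and 0.0471). The genotypes of Zim1 did not overlap in either sort. Peg10, a retrotransposon-derived gene on chromosome 6, rose by 1.07 ± 0.19 (adjusted p = 0.0492). Igf2, the fetal growth factor, was 354, 399.9, 303 and 546 in wild-type OBs and 1599, 2364, 1378 and 792 in deficient OBs, without overlap, and its shared effect of 1.06 ± 0.22 did not pass (adjusted p = 0.0641). Its neighbour H19 had one of -0.29 ± 0.56. Dlk1, an inhibitor of fat-cell formation, was 280.3, 239.5, 371 and 542 against 550.5, 1476, 1468 and 1165 in MSCs, with a difference of -1.48 ± 0.30 that did not pass (adjusted p = 0.15).

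The 5 lipid transporter genes Abca5, Abca6, Abca8a, Abca8b and Abca9, which lie side by side on chromosome 11, had effects above 0 in both sorts, also noticed after the values were seen. Abca5 (0.98 ± 0.14, adjusted p = 0.0433) and Abca8a (2.10 ± 0.35, adjusted p = 0.0462) passed the shared test, and the median of the 5 was 1.13. Reads can be shared between the similar copies Abca8a and Abca8b. Also outside the naming rule, Nox4, an oxidase that makes hydrogen peroxide, rose by 2.03 ± 0.35, and Svep1, a large adhesion protein, by 1.55 ± 0.25. Nox4 was 969, 974, 892 and 640.2 in wild-type MSCs and 3834, 1070, 2115 and 3500 in deficient MSCs, and 43.2, 48.1, 68.6 and 60.2 against 911, 179, 314 and 251 in OBs, without overlap in either.

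Cxcl13, a chemokine that attracts B cells, was below the minimum in OBs and untested. It had 0 reads in all wild-type MSC libraries and values of 337, 43.8, 83.7 and 361 in deficient ones.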
